A study of Mus musculus with 4 samples.

Results

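Levels of 8 genes that encode fatty acid desaturases and elongases were read in spleen RNA of newborn mice whose mothers had or had not received carbon black nanoparticles (CB-NP), ultrafine particles of nearly pure carbon. The genes were Fads1, Fads2 and Fads3 (front-end desaturase family), Scd1 and Scd2 (stearoyl-CoA desaturases) and Elovl1, Elovl5 and Elovl6 (elongases). They were found through the RefSeq accession that the array files give for each probe. All 8 of 8 had a probe, of 20284 genes so matched, and all 8 were well above background on all 4 arrays. The set was chosen by the differences between the CB-NP and control pools on these same arrays, Fads3 being its leading gene, so those differences, which are log2 differences between pools of the same sex, are given as a description and no p-value was computed for them.

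The mice were offspring of the outbred ICR stock, taken at 5 days of age. Dams in the CB-NP groups had 2 intranasal instillations, on gestational days 5 and 9, of 95 microg/kg each. Dams in the control groups had distilled water at 1 mL/kg each time. There were 4 groups, namely control and CB-NP offspring of each sex. Total RNA of whole spleens was pooled within each group and each pool was read on 1 single-colour array. How many animals or litters a pool held is not given in the sources used here, and no genotype is given. With 1 pool per group, no difference could be compared with a spread between replicates. The scanner error given below is the error reported for a spot by the software that read the arrays. It leaves out all variation between animals. For nearly every member it is almost the same share of the signal, so that the error of a difference comes to about 0.20. It is therefore a near-constant limit and says little about how well a given spot was read.

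Desaturases put double bonds into fatty acyl chains and elongases lengthen them by adding carbon units from malonyl-CoA. Fads2 and Fads1 act in turn on dietary linoleic and alpha-linolenic acid, with Elovl5 between them, to give arachidonic acid and other polyunsaturated fatty acids from which immune cells make eicosanoids. Scd enzymes make oleic and palmitoleic acid from saturated precursors, Elovl6 supplies their main substrate, stearoyl-CoA, and Elovl1 extends saturated and monounsaturated chains to very long ones. Several of these genes are known targets of the transcription factors SREBP-1 and LXR in liver.

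The 4 arrays lay on 1 slide, and array position cannot be told apart from group. No non-control spot was saturated, and of 59305 non-control spots 57.3% to 59.0% per array lay well above background. The female marker Xist read 915 and 945 intensity units in the female pools and was not well above background in the male pools, while the Y-linked Ddx3y read 931 and 936 in the male pools and was not well above background in the female ones. As for tissue, all 8 erythroblast markers were well above background on every array, as were Tlx1 and Nkx2-5, genes of the spleen anlage, whereas of 6 hepatocyte markers Alb, Apoa1 and Ttr were so on none, Fgb only in the male control, and Serpina1a and Ahsg on every array. Pancreatic acinar markers were present in both control pools, with a summed level of 20.1 and 15.8 times the 75th percentile signal of the array, and at 0.522 and 0.637 in the male and female CB-NP pools. Levels below are log2 of the processed signal minus the array's 75th percentile, so that 0 is that percentile. They were not set against each other between genes, because probes differ in brightness. Scaling by the median in place of the 75th percentile moved all female differences by -0.11 together, and the authors' scaling moved them by 0.09 and all male ones by 0.06, so differences of that size or less have no settled sign.

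Fads3 was the only one of the 8 genes that was at least 2-fold higher with CB-NP, and it was so in both sexes. Fads3 lies between Rab3il1 and Fads2 on chromosome 19 and encodes the family member that acts on sphingoid bases of ceramides, not on the substrates of Fads1 and Fads2. Its processed signal was 1340 ± 135 (scanner error) in control males, 2970 ± 297 in exposed males, 1540 ± 154 in control females and 2630 ± 263 in exposed females. On the log2 scale these levels were 2.0, 3.13, 1.97 and 3.05. Both CB-NP pools were high and both control pools low, and the lower CB-NP pool stood 1.05 above the higher control pool. The male difference was 1.13 (scanner error 0.20), or 2.18-fold, and the female difference was 1.08 (0.20), or 2.11-fold. Female minus male, the control pools differed by -0.03 and the CB-NP pools by -0.07, both within the scanner error of 0.20. The female value was 0.97 with median centring, which is below 2-fold. The male value lay between 1.12 and 1.18 over the 5 alternatives that can move it, since the other 3 leave a gene with 1 probe and detection on every array as it is.

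**Figure D1:**
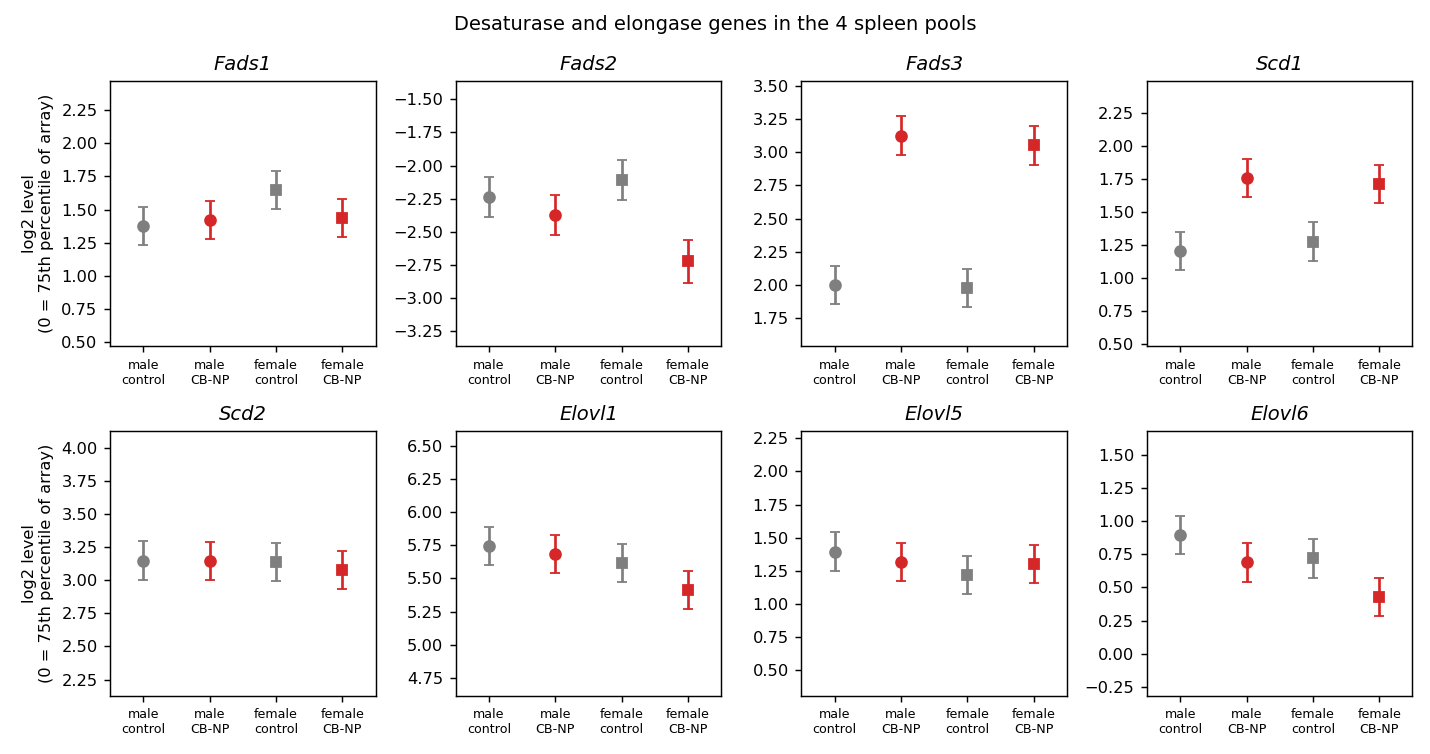
Log2 level of the 8 genes in the 4 spleen pools (0 is the 75th percentile of the array; each vertical axis spans the same number of log2 units). Each point is 1 pool, circles are males, squares are females, grey is control and red is CB-NP, and bars are the scanner error; Fads3 separates the CB-NP pools (3.13 and 3.05) from the controls (2.0 and 1.97) by the widest gap.

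Fads3 had 1 probe (A_51_P464029), on 1 spot of each array, so no second probe could be set beside it. The local background at that spot was 26, 25, 24 and 22 intensity units in the order given above, far below the signal. Within 10 rows and columns of the spot lay 237 other spots that were well above background on both male arrays, with a median log2 difference of -0.04. In the female pair 231 such spots had a median of -0.04. The surrounding area of the arrays was therefore not higher with CB-NP.

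The letters upstream of Fads3 and of its neighbour Fads2 are shown because the genes lie side by side and differed in opposite directions in the female pools. The sequences are from RefSeq (build GRCm38.p6, whereas the array was drawn on mm9) and each gives the 250 bases before the annotated start, 5′ to 3′ on the strand of the gene. Capitals mark CCAAT and GGGCGG on either strand, the latter also as CCGCCC.
Fads3, chr19:10041298-10041547, plus strand: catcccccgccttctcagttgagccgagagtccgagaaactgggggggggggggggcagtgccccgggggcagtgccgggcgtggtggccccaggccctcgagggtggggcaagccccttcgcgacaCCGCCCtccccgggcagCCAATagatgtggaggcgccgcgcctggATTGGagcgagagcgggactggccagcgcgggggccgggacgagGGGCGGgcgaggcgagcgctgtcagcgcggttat
Fads2, chr19:10101504-10101753, minus strand: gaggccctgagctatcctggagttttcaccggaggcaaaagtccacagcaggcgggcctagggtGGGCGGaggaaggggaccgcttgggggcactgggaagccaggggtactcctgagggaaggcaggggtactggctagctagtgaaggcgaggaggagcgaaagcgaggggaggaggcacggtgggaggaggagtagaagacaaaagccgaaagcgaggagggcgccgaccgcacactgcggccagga

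The Fads3 window held 2 CCAAT boxes (the letters CCAAT or ATTGG, bound by NF-Y), whose first bases lie 106 and 78 bases before the start, and 2 GC boxes (GGGCGG or CCGCCC), at 123 and 34. The Fads2 window held no CCAAT box and 1 GC box, at 186. Of 32851 windows of the same length, 33.8% held CCAAT or ATTGG and 32.7% held GGGCGG or CCGCCC. Neither window held the E-box CACGTG (6.02% of all windows), the sterol regulatory element TCACNCCAC or its reverse complement GTGGNGTGA (1.05%), or the LXR element, a direct repeat of AGGTCA spaced by NNNN, on either strand (0.0152%). Promoter windows were at hand for 5 of the 8 genes. Elovl5 held 2 CCAAT boxes and 1 E-box, the 2 Elovl1 windows held 5 and 2 GC boxes and 1 of them a CCAAT box, and Elovl6 held none of the 5 motifs. A match describes letters only and shows no binding.

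Fads2, which encodes the desaturase that opens the polyunsaturated fatty acid pathway, was dim. Its signal was 70.9 ± 7.40 in control males, 65.5 ± 6.85 in exposed males, 90.9 ± 9.38 in control females and 48.0 ± 5.31 in exposed females. The female CB-NP pool was the lowest and the female control pool the highest. The log2 difference with CB-NP was -0.61 in females (scanner error 0.22) and -0.14 in males (0.21). In females 5.92% of the 14076 genes compared differed by more in size. The female value was -0.29 with normexp background correction, the only one of 123 member values that an alternative could move that moved by more than its scanner error.

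Fads1, the desaturase that makes arachidonic acid, read 869 units in control males, 910 in exposed males, 1230 in control females and 856 in exposed females. The female control pool was the highest and the other 3 pools lay within 0.06 of each other on the log2 scale. The difference with CB-NP was 0.05 in males and -0.22 in females, against a scanner error of 0.20, and the female control exceeded the male control by 0.27. The 3 genes of the family therefore did not move as a block, with male differences of 0.05, -0.14 and 1.13 and female differences of -0.22, -0.61 and 1.08 for Fads1, Fads2 and Fads3.

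Scd1, the main stearoyl-CoA desaturase of liver and fat, was higher in both CB-NP pools but did not reach 2-fold. Its signal was 772 ± 77.2 in control males, 1150 ± 115 in exposed males, 950 ± 95.0 in control females and 1040 ± 104 in exposed females. As log2 levels these were 1.20, 1.76, 1.28 and 1.71, with the lower CB-NP pool 0.44 above the higher control pool. The difference was 0.55 in males (scanner error 0.20, 1.47-fold) and 0.44 in females (0.20, 1.35-fold). Over the alternatives it ranged from 0.52 to 0.61 in males and from 0.33 to 0.54 in females. Among all genes compared, 2.95% were higher by more in males and 8.08% in females.

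Scd2, the form that predominates in brain and in early postnatal life in mice, was level across the pools. It read 2970 and 3010 units in control and exposed males, and 3450 and 2680 in control and exposed females, or 3.15, 3.15, 3.14 and 3.08 on the log2 scale in that order. The spread over the 4 pools was 0.07, below the scanner error of 0.20. Its differences with CB-NP were -0.0021 in males and -0.06 in females. Scd1 and Scd2, which lie on either side of Scd4 on chromosome 19, thus gave unlike values within the same arrays.

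The 3 elongase genes differed by less than Fads3 and Scd1. Elovl6, which extends palmitate to stearate, read 624 ± 62.5 in control males, 548 ± 54.8 in exposed males, 645 ± 64.5 in control females and 426 ± 42.7 in exposed females. Both CB-NP pools lay below both control pools, but by only 0.03 between the nearest ones, and the differences were -0.21 in males and -0.29 in females (scanner error 0.20 each). About a scanner error thus separated each pair, and 32.1% and 29.8% of all genes differed by more in size.

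Elovl1, the elongase of saturated very long chains, was read by 2 probes. The main probe (A_55_P2151273) read 18000 and 17500 units in control and exposed males, and 19200 and 13500 in control and exposed females, with differences of -0.06 in males and -0.20 in females. The other probe (A_55_P2022861) read 2300, 2090, 2660 and 1630 in the same order, with differences of -0.16 and -0.40. Both probes were lowest in the female CB-NP pool, and they differed from each other by up to 0.20. Elovl5, the elongase of the polyunsaturated pathway, read 881, 846, 912 and 781 units, with differences of -0.08 in males and 0.08 in females, both within the scanner error.

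Of the 8 genes, 1 was higher by 2-fold or more with CB-NP in each sex, and 0 were lower by that much. The background was 0.352% of 14189 genes higher and 0.507% lower in males, and 0.661% of 14076 genes higher and 0.433% lower in females. These splits depend on scaling. They were 50 higher and 72 lower in males but 69 and 61 with the authors' scaling. In females they were 93 and 61, but 77 and 79 with quantile normalization, 65 and 88 with median centring, 20 and 30 with normexp and 140 and 50 with the authors' scaling. Of 13936 genes detected on all 4 arrays, 4 were 2-fold or more higher in both sexes (0.0287%), Fads3 among them. Nothing is read from the member's count, since the set was chosen around it. Just inside the threshold lay Fads3 in females (1.08) and next outside it Fads2 in females (-0.61) and Scd1 in males (0.55).

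The median difference of the 8 genes was -0.03 in males, beside -0.02 for all genes compared, and -0.13 in females, beside -0.04. The CB-NP and control pools did not overlap for 4 of the 8 genes, with Fads3 and Scd1 higher and Fads2 and Elovl6 lower. That happened for 54.5% of all genes on the 4 arrays (21.8% higher and 32.7% lower), so the count is close to the background. Fads3, Scd1 and Fads2 also did not overlap under normexp or any of the 4 other scalings. Elovl6 overlapped with normexp and with the authors' scaling, while Scd2 or Elovl1 no longer overlapped under some of them, so that the count was 4 or 5 of 8. Between the control pools of the sexes, 0 of 8 members differed 2-fold (0.777% of all genes), and the largest member difference was the 0.27 of Fads1.

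**Figure D2:**
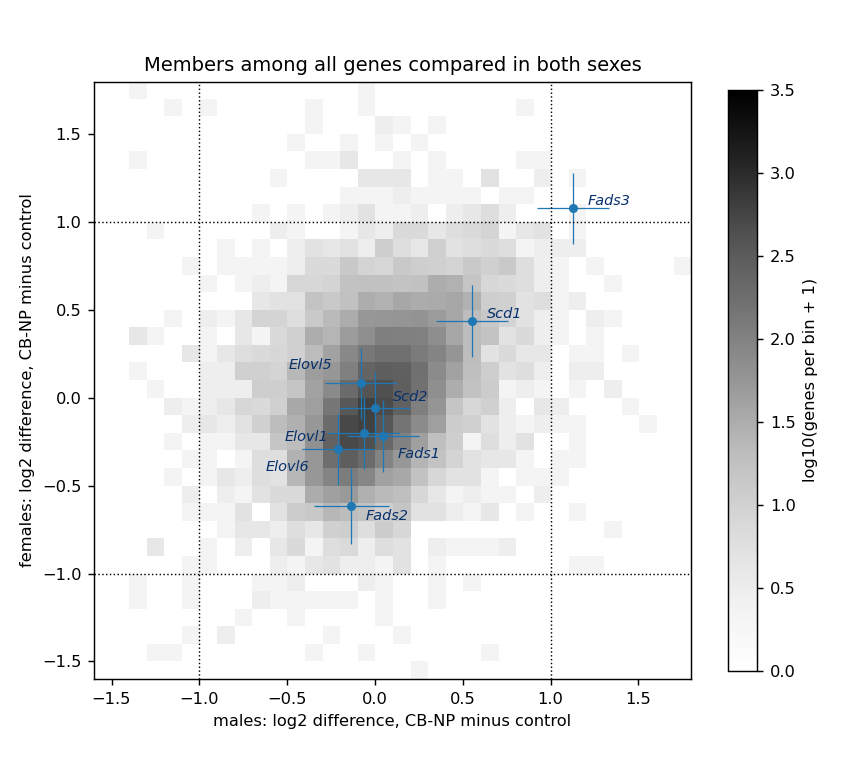
Log2 difference with CB-NP in males (horizontal) and females (vertical); the grey scale counts all genes compared in both sexes, blue points are the 8 members with scanner error bars, and dotted lines mark 2-fold. Fads3 lies past 2-fold on both axes (1.13 and 1.08), Scd1 follows at 0.55 and 0.44, and the other 6 lie inside the dense cloud or at its lower edge.

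Fads1, Fads2 and Fads3 lie in a row on chromosome 19, and their flanking genes were read to see whether the whole stretch differed. On one side of Fads3, the Rab GTPase exchange factor gene Rab3il1 had differences of -0.28 in males and -0.08 in females, and the ferritin heavy chain gene Fth1 had -0.23 and -0.10. Beyond Fads1, the flap endonuclease gene Fen1 had -0.12 and -0.32, and Tmem258, a subunit of oligosaccharyltransferase, had -0.23 and -0.31. Best1 and Myrf, also in the row, were not well above background on any array. Of the 7 measured genes in the row, Fads3 was the only one that reached 2-fold in either sex, with the female exception under median centring given above.

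The Scd genes form another row on the same chromosome. Scd4 was higher with CB-NP by 0.44 in males and 0.34 in females, but at signals of 25.2 to 34.7 units, near the detection limit. Scd3 was at -0.10 and 0.26 by its brightest probe. A dimmer probe of Scd3 gave 0.82 and -0.01 at 17.4 to 33.0 units, and another was not well above background. The Scd genes are close copies of each other and cross-hybridization between them was not checked, since probe letters were not used here. The flanking genes Bloc1s2 (0.07 and 0.07) and Ndufb8 (-0.15 and -0.11) lay near 0, and Cwf19l1 was at 0.11 and -0.25. Sec31b was at 0.72 in males and 0.08 in females at 37.3 to 79.2 units. Pkd2l1 and Wnt8b were not well above background on any array.

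**Figure D3:**
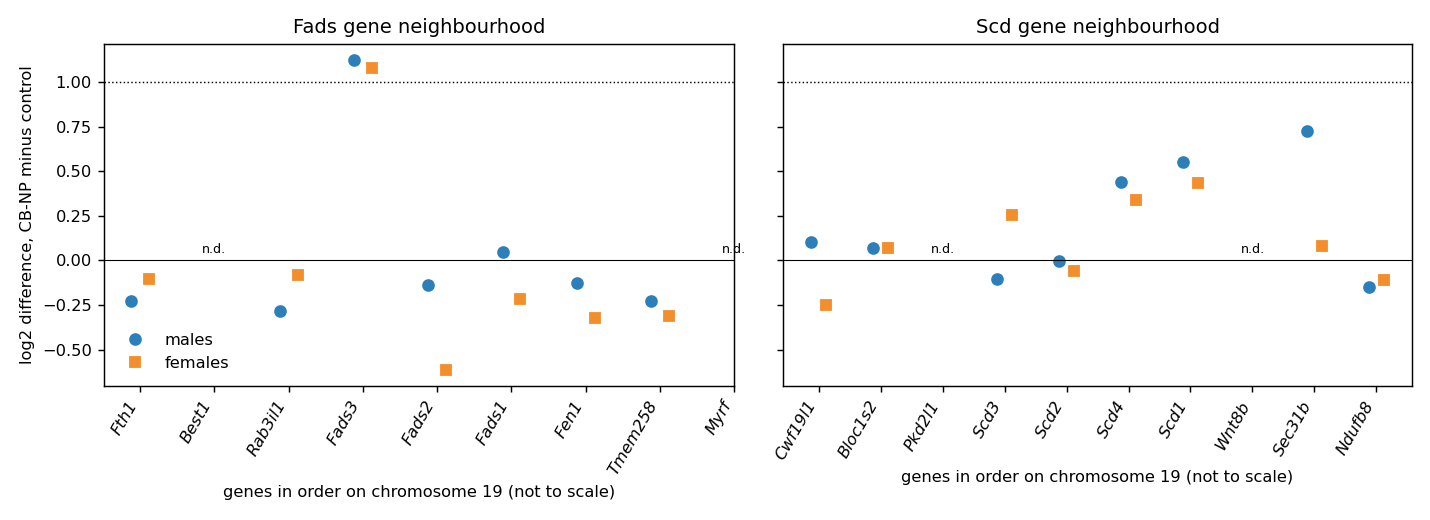
Log2 difference with CB-NP for genes in their order around the Fads and Scd genes (blue circles, males; orange squares, females; n.d. means not well above background; dotted line, 2-fold). Fads3 stands at 1.13 and 1.08 while its neighbours lie at -0.28 and -0.08 (Rab3il1) and at -0.14 and -0.61 (Fads2).

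The rest of the pathway was read through 9 lists with 95 genes, of which 85 were measured in males and 86 in females. None of them was 2-fold higher or lower in either sex. Above 0 were 49 of 85 in males, with a median of 0.02 beside -0.02 for all genes, and 32 of 86 in females, with a median of -0.09 beside -0.04. For comparison, 45.2% of all genes were above 0 in males and 43.3% in females.

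Among other desaturases and elongases, the ceramide desaturase gene Degs1 had differences of 0.12 in males and 0.05 in females. Elovl7 was higher by 0.55 and 0.38 at 83.4 to 148 units. Elovl2 and Elovl3 were not well above background on any array. Elovl4 was so only in the male control by its brighter probe, while another probe read 16.9 units in exposed males and 2.04 to 2.22 in the other pools. Fads6 was so only in the female CB-NP pool, at 18.1 units against 9.41 in the female control. Its other probe was not well above background in the female pools.

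The genes that complete the elongation cycle were lower with CB-NP in 6 of 6 cases in females, with a median of -0.31, and in 5 of 6 in males, with a median of -0.12. Hacd3, a dehydratase, was at -0.14 and -0.13, and Tecr, the reductase of the last step, at -0.24 and -0.36. Of the genes that carry electrons to the desaturases, 5 were measured, with medians of -0.07 and -0.12. Cytochrome b5, Cyb5a, was at -0.07 and -0.12, and its reductase Cyb5r3 at -0.23 and -0.28.

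For saturated fatty acid synthesis the medians were 0.03 in males and -0.04 in females over 10 genes. Acly, which makes cytosolic acetyl-CoA, was at -0.03 and -0.16, and Mid1ip1, a partner of acetyl-CoA carboxylase, at 0.04 and -0.24. The synthase gene Fasn, named after its values were seen, was at 0.45 and 0.08, at 65.0 to 91.1 units. The regulators of SREBP processing and the lipid-sensing receptors had medians of 0.00 (15 genes) and -0.03 (16 genes). The retinoid receptor gene Rxrb was at 0.01 and -0.03 and the LXR-beta gene Nr1h2 at -0.06 and -0.02. Among this list, the LXR-alpha gene Nr1h3 was at 0.39 and 0.59 and Srebf1 at 0.06 and 0.31, both named after their values were seen. A second probe of Nr1h3 gave 0.38 and 0.55.

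Cholesterol synthesis and uptake genes had a median of 0.08 in males, with 13 of 21 above 0, and -0.13 in females, with 6 of 22 above 0. Ebp, the sterol isomerase, was at -0.06 and -0.13, and Pmvk, the phosphomevalonate kinase, at 0.00 and -0.20. Acyl-CoA synthetase genes had medians of 0.04 and -0.10, as with Acsl1 (-0.07 and -0.18) and Acsl5 (0.00 and -0.34). Genes that release and use arachidonic acid had medians of 0.02 (15 genes) and -0.13 (14 genes). The prostaglandin E synthase gene Ptges was at 0.08 and 0.09, and Alox5ap, needed for leukotriene synthesis, was at 0.02 and -0.45. The lipoxygenase gene Alox5, named after its values were seen, was at -0.02 and -0.84.

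**Figure D4:**
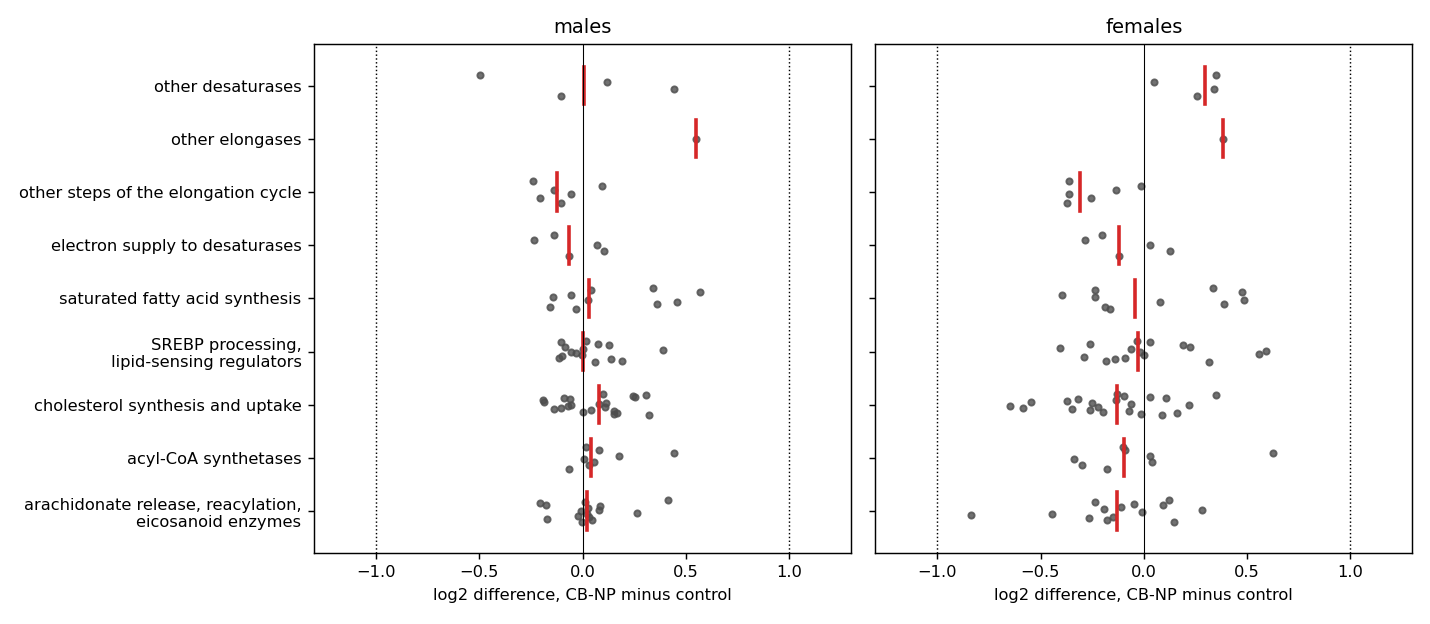
Log2 difference with CB-NP of the measured genes of the 9 pathway lists in males and females; each dot is 1 gene, red bars are list medians and dotted lines mark 2-fold. No dot lies past 2-fold. The highest median (0.55 and 0.38) is that of a list with 1 measured gene, the dim Elovl7, and the other list medians run from -0.12 to 0.08 in males and from -0.31 to 0.30 in females.

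The genes most like Fads3 were sought among the 13936 genes that were detected on every array, by the Euclidean distance between log2 levels centred on each gene's mean over the 4 pools. The nearest 5 were Ell3, a transcription elongation factor (distance 0.09), Rubcnl, an autophagy factor (0.15), Fcer2a, the IgE receptor CD23 and also 1 of the 10 B cell markers below (0.17), Il4i1, an amino acid oxidase (0.19), and Ifi209, an interferon-inducible gene of the p200 family (0.21). Their differences with CB-NP ranged from 0.86 to 1.19 in males and from 0.88 to 0.99 in females. Ell3 had log2 levels of -0.56, 0.55, -0.50 and 0.48 in control males, exposed males, control females and exposed females. With 4 pools many genes can share such a profile, so the list is a description.

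Markers of other cells also differed between the CB-NP and control pools. B cell markers were higher with CB-NP in 10 of 10 cases in males (median 0.70) and in 9 of 10 in females (median 0.72), and all 10 were well above background on every array. Their summed level was 64.6 in control and 109 in exposed males, and 60.8 in control and 99.98 in exposed females. Cd79b, a chain of the B cell receptor and the brightest of them, was at 0.71 in males and 0.77 in females, Ms4a1, a B cell surface protein, at 0.92 and 0.61, and Fcmr, the IgM receptor, at 0.75 and 0.72. Cd22, named after its values were seen, was at 0.02 and -0.22. Cr2, likewise, was at 0.59 and 0.68 by its main probe, but a dimmer probe gave 0.46 and -0.91. The B cell markers thus mostly lay in the same direction as Fads3 and Scd1, and their part in those values was not tested. In a bulk sample, more cells of a type and more RNA per cell cannot be told apart.

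Some markers of other cells also lay on the side of Fads3 and Scd1, while others of the same lists did not. Of 6 measured spleen stroma markers, 3 were above 0 in males (median 0.21) and 5 in females (median 0.40), and their summed level was 52.0 and 59.4 in control and exposed males, and 49.2 and 63.7 in control and exposed females. The stromal chemokine genes Ccl19 (0.52 and 0.47) and Cxcl13 (0.42 and 0.52) and the endothelial adhesion gene Madcam1 (0.52 and 0.98) were higher in both CB-NP pools, while the collagen gene Col1a1 was at -0.12 and 0.22. Tlx1 was at -0.08 and -0.05, and Nkx2-5 at -0.0038 and 0.34. Red pulp macrophage and monocyte markers were above 0 in 6 of 6 cases in males (median 0.13) and 4 of 6 in females (median 0.04). Cd163, well above background only in the female control, read 18.6 units there and 7.61 in exposed females. Of the hepatocyte markers, Serpina1a, which encodes an alpha-1-antitrypsin, read 768, 1240, 785 and 1540 units in control males, exposed males, control females and exposed females. Its differences were 0.67 and 1.28, the latter past 2-fold, and a second probe gave 0.56 and 1.18. Ahsg, at 16.7 to 27.3 units, was at 0.19 and 0.11. Fgb went the other way in males, where only the control pool passed detection, at 14.3 units against 8.02 in exposed males. Alb, Apoa1 and Ttr were detected in none of the pools. The summed level of the 6 hepatocyte markers was 2.44, 3.77, 2.09 and 4.96 in the order given for Serpina1a. Serpina1a was by far the brightest of them, so that sum mostly follows this gene. The part of these cells in the values of Fads3 and Scd1 was not tested.

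Of 7 eosinophil markers, 6 were at least 2-fold lower with CB-NP in each sex, as with Prg2, the major basic protein (-3.33 and -2.36). The remaining marker, Il5ra, went the other way in both sexes (0.31 and 0.84). The summed level of the 7 was 32.2 and 9.32 in control and exposed males, and 62.6 and 17.7 in control and exposed females. Acinar markers were lower as stated above, with 5 of 5 measured members at least 2-fold lower in each sex, as with the chymotrypsinogen gene Ctrb1 (-6.15 and -4.65). The part of these cells in the lower values of Fads2 and Elovl6 was not tested. Cycling cell markers were lower in 7 of 8 cases in males (median -0.20) and 8 of 8 in females (median -0.26). Erythroblast markers were lower in 7 of 8 cases in males (median -0.11) and 6 of 8 in females (median -0.14). T cell markers went the other way, above 0 in 6 of 8 cases in males (median 0.12) and 8 of 8 in females (median 0.60). Of all genes compared, 45.2% were above 0 in males and 43.3% in females. Some erythroblast values, such as Epor (-0.08 and -0.09), were about the size of the scaling shifts, so their signs are not settled. The part of cycling cells, erythroblasts and T cells in the values of the 8 genes was not tested. Adipocyte markers were checked because fat is rich in Scd1 in mice. Of 5 measured in both pairs, 4 were above 0 in males (median 0.09) and 3 in females (median 0.00). The lipoprotein lipase gene Lpl, which macrophages also express, was at 0.09 and -0.13, the fatty acid binding protein gene Fabp4 at 0.09 and 0.35, Car3 at 0.02 and 0.00, and the dim Cfd at 0.34 and 0.36 and Plin4 at -0.21 and -0.20. Adipoq, Cidec, Cidea, Ucp1, Pck1 and Lep were not well above background on any array, and the summed level of the 13 markers was 3.94, 4.17, 4.29 and 4.28 in control males, exposed males, control females and exposed females. The part of adipocytes in the Scd1 values was not tested.

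**Figure D5:**
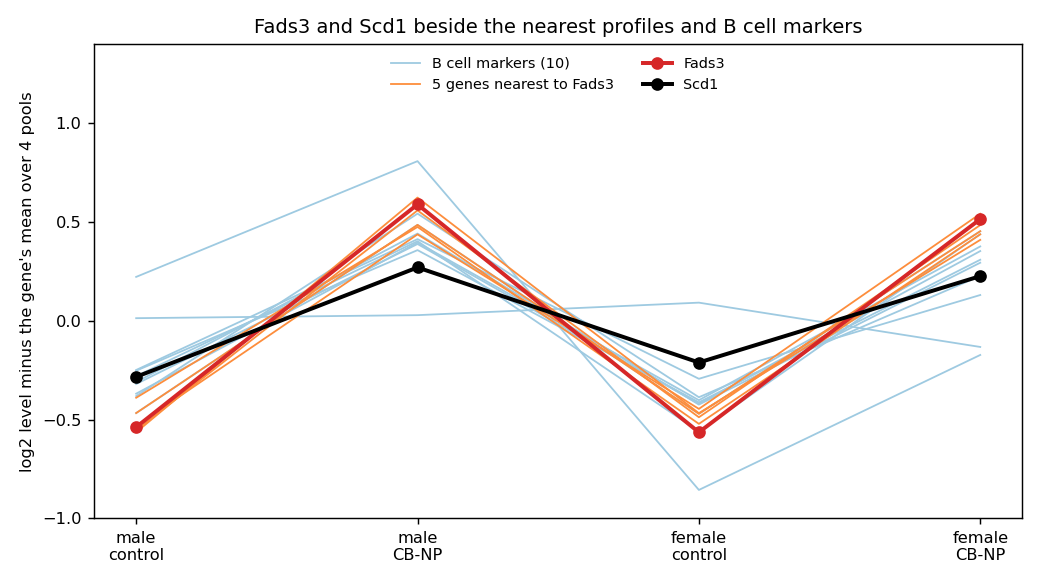
Log2 level of each gene minus its mean over the 4 pools, by pool: Fads3 (red), Scd1 (black), the 5 genes nearest to Fads3 (orange) and the 10 B cell markers (blue), with Fcer2a in both sets. Fads3 and Scd1 are high in both CB-NP pools, as are most B cell markers, whose median difference was 0.70 in males and 0.72 in females.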

How the data were processed

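Per the file headers, Agilent arrays of design 028005 (drawn on mm9) were read in the Cy3 channel with Agilent Feature Extraction 10.10.1.1. The deposited processed signal is an intensity on a linear scale, background-subtracted within the array and not normalized between arrays. The other deposited columns used were the scanner's error, median spot and background intensities, and flags of 0 or 1. The authors' value table is a linear intensity equal to the processed signal multiplied by an array-wide factor (3.10 and 3.18 for control and exposed males, 2.64 and 3.49 for control and exposed females; column medians 75.2, 76.1, 68.9 and 79.4). The target of that scaling is not given in the sources used here.

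Log2 signals were centred on each array's 75th percentile of non-control spots. Spots flagged as outliers were left out and repeated spots of a probe averaged. Of 55681 probes, 26762 matched RefSeq accessions (names from GRCm38.p6), and a gene took its probe with the highest mean signal. A gene entered a pair when well above background on both arrays, and "at least 2-fold" means a log2 difference of 1 or more in size. Where only 1 array of a pair was well above background, the signals are given without a fold. No test was run, since the members were chosen on these contrasts and each group is 1 pool. A fit of exposure with sex as a term would treat the sexes as replicates and leave 1 residual degree of freedom, and it was not run. Precision is limited by the number of arrays. The members and lists were chosen with earlier results of these data known. Pathway genes were named as those at least 2-fold different, otherwise the 2 brightest of a list, and marker genes from the 4 brightest of a list. Other marker genes, such as those not well above background, were named after their values were seen. The fold counting was tested on simulated data. Software was Python 3.11.15 with pandas 2.3.3 and numpy 2.4.6, and R 4.3.3 with limma 3.58.1. The alternatives were normexp correction (offset 50, on median intensities), median centring, quantile normalization, cyclic loess, the authors' scaling, detection on all 4 arrays, no detection filter and the mean of a gene's probes.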

Additional observations from a re-analysis of the deposited data

Results flagged for a closer look

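Of the 8 genes, 2 moved in opposite directions in the sexes. For Fads1 the CB-NP difference was 0.05 in males and -0.22 in females, a female minus male value of -0.26 with a scanner error of 0.29. For Elovl5 it was -0.08 and 0.08, a female minus male value of 0.16 with a scanner error of 0.29. With median centring Elovl5 was lower in both sexes (-0.04 and -0.03), so its opposite signs depend on the scaling. Fads1 kept opposite signs under all 5 alternatives that can move it. Neither sex difference was tested, since each rests on 4 pools read once.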

How the results depend on the processing

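Over 8 alternatives, 192 member differences were recomputed, of which 69 equal the reported value by construction (detected members under another filter, or 1 probe). Of the 123 that could move, 122 stayed within the scanner error of the reported value, and no called value changed sign. Median centring and the authors' scaling move all genes of a pair nearly alike, by at most 0.12 in the median. Values under these 2 could therefore not pass a scanner error of 0.20, and their part of the count shows nothing about stability. The count of members at least 2-fold different was 1 in males under every alternative. In females it was 1 except with median centring, where it was 0 because Fads3 read 0.97, and between control pools it was 0 throughout. The median over all genes moved with that centring by -0.11 in the female pair and by 0.12 between the control pools. Without a detection filter, the count of pathway genes at least 2-fold different was 1 in males (Elovl4, -1.58) and 3 in females (Fads6, 1.25; Cyb5r2, 1.07; Alox15, -1.65), all with signals of at most 18.1 units. Over all genes, normexp lowered the count of 2-fold differences from 122 to 35 in males, from 154 to 50 in females and from 110 to 15 between controls, while omitting the detection filter raised it to 1100, 1104 and 1036. Dim genes such as Fads2, Fasn and Scd4 are read less firmly than Fads3, whose signal was far above background. Differences were taken within each sex, and a model over both sexes was not run.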
